A study of Mus musculus with 3 samples.

Results

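Zscan4a, Zscan4c, Zscan4d and Zscan4f, the 2-cell-stage genes Tcstv1 and Tcstv3, and Zfp352 were examined in mouse embryonic stem cells on 3 Agilent 1-colour arrays. These 7 genes of the 2-cell embryo were chosen by name from 20284 genes named on the array, with earlier results of these data known. The probes whose RefSeq accession belonged to a member were taken, which gave 9 of 55681 probes for 6 of the 7 genes. No probe was assigned to Zscan4d. The first array held RNA labelled Pcgf6KO+ Pcgf6_flag, from edited cells that had then received Pcgf6_flag by lentivirus. The second held RNA of Pcgf6KO cells, edited with Cas9, and the third held RNA of wildtype cells. All cells were labelled male and were grown with fibroblasts inactivated by mitomycin-C, in serum with leukemia inhibitory factor. The labels do not say whether a line was 1 clone. There was 1 array per group, so no difference has a replicate check, no test or p-value was possible, and the small number of arrays is what limits precision.

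Zscan4 genes encode nuclear proteins with a SCAN domain and zinc fingers. They are transcribed in the 2-cell embryo and, in stem cell cultures, in a small and changing fraction of cells, where they have been linked to telomere maintenance. Tcstv1 and Tcstv3 belong to a family of short proteins found at the 2-cell stage and in the same stem cell state, and Zfp352 encodes a zinc finger protein of the 2-cell embryo. Pcgf6 is the Polycomb RING finger subunit that defines the variant Polycomb complex PRC1.6, which is brought to promoters with the help of the DNA-binding proteins Mga, Max and E2f6 and represses many germline genes.

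The promoters of the members are shown to compare the Zscan4 copies around their starts. They do not show whether an array probe separates the transcripts, which was not tested. The sequences are RefSeq's for GRCm38.p6, run 5′ to 3′ on the gene's strand from 250 bases before to 50 bases after the start, and were given for 4 of the 7 members. They cover chr7:11005495-11005794 on the plus strand for Zscan4c, chr7:11166099-11166398 on the minus strand for Zscan4d, chr7:11397665-11397964 on the plus strand for Zscan4f and chr4:90218570-90218869 on the plus strand for Zfp352. Capitals mark TATAAA, searched on both strands.
Zscan4c: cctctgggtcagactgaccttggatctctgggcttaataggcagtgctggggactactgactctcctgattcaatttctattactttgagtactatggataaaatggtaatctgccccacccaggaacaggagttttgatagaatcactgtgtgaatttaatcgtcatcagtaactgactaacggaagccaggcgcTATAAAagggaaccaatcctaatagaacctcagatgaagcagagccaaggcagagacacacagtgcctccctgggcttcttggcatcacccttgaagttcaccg
Zscan4d: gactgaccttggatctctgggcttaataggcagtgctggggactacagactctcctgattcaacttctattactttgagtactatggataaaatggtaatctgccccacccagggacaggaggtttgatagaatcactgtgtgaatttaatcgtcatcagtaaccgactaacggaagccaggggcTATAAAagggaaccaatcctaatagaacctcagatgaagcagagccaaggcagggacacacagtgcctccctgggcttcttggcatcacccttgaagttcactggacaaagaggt
Zscan4f: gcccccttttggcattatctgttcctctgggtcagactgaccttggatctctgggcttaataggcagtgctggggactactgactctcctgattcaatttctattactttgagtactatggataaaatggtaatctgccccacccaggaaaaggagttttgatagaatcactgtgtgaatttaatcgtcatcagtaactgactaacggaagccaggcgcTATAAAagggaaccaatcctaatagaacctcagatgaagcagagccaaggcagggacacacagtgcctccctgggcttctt
Zfp352: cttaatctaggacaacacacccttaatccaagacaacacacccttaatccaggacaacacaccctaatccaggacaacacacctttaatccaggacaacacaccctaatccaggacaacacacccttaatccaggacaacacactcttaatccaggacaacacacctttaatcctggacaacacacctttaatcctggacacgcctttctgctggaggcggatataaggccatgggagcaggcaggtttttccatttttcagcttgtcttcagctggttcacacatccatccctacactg

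Aligned to each other, the Zscan4c and Zscan4f windows were identical at 99.3% of 277 aligned bases. Zscan4c and Zscan4d were identical at 97.2% of 289 bases, and Zscan4d and Zscan4f at 97.4% of 266. TATAAA occurred once in each Zscan4 window, beginning 54 bases before the annotated start in Zscan4c, 65 in Zscan4d and 31 in Zscan4f, so the same stretch lies at different distances from the starts RefSeq gives. It was not in the Zfp352 window. Among all 32851 promoter windows 13.6% held it. The E-box CACGTG, which Mga and Max can bind, and TCCCGC, a core of E2F sites, were searched on both strands and were in none of the 4 windows, against 7.15% and 20.0% of all windows. A match or its lack describes these letters only.

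Each probe was printed as 1 spot per array, and its signal is given with the error that Agilent's Feature Extraction software reports for the spot. A level is log2 of the signal minus the log2 of the array's 75th percentile, which was 4619 signal units on the array labelled Pcgf6KO+ Pcgf6_flag, 4292 in Pcgf6KO and 3917 in wildtype. Differences are between levels of the same probe, in log2 units, and a difference of 1 (2-fold) was the threshold for calling it. A probe that the software did not mark as well above background is called dim. Where it was dim on 1 of 2 arrays the difference is a bound, written as "at least". A bound takes the signals as given, without the spot error, and holds for this processing only. The lowest signal well above background was 103, 53.4 and 52.7 on the 3 arrays in the same order, and 60.7%, 66.0% and 65.3% of probes were well above background. The negative controls had an SD of 16.9, 9.09 and 8.80 signal units. Pcgf6KO and wildtype lay on slide 1 and the array labelled Pcgf6KO+ Pcgf6_flag alone on slide 2, so slide and group cannot be told apart there.

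The edited gene was checked first. The Pcgf6 probe gave 6202 ± 621 signal units on the array labelled Pcgf6KO+ Pcgf6_flag, 7704 ± 771 in Pcgf6KO and 14333 ± 1433 in wildtype. Its level differed by -1.03 between Pcgf6KO and wildtype and by -0.42 between the array labelled Pcgf6KO+ Pcgf6_flag and Pcgf6KO. Pcgf6 was thus not higher on the array labelled as carrying the introduced gene, and every direction drawn from that array rests on its label. The sources used here do not place this probe against the Cas9 edit or the lentiviral insert.

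The labelled cell type was compared with marker lists. All 12 stem cell markers were well above background on all 3 arrays and none passed 2-fold in any comparison. Their median differences were -0.22 for Pcgf6KO against wildtype and 0.01 for the array labelled Pcgf6KO+ Pcgf6_flag against Pcgf6KO. The source label also names muscle. Of 11 skeletal muscle markers Myog, Myf5 and Ckm were dim on all 3 arrays, and 8 were well above background on at least 1. Among these was Myod1, a muscle determination factor, with 13807 signal units on the array labelled Pcgf6KO+ Pcgf6_flag, 11356 in Pcgf6KO and 10365 in wildtype, so the muscle list is neither wholly present nor wholly absent. Fibroblast markers were present, and the number well above background out of 16 was 9 on the array labelled Pcgf6KO+ Pcgf6_flag, 13 in Pcgf6KO and 15 in wildtype. Their summed linear level, relative to the 75th percentile, was 27.3, 32.0 and 56.9 on the same arrays. Fn1 and Sparc were the largest terms on each array and differed by -0.09 and -0.22 between Pcgf6KO and wildtype. Against wildtype they differed by 0.01 and -0.14 on the array labelled Pcgf6KO+ Pcgf6_flag. The sum therefore understates the differences of most other fibroblast markers.

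In Pcgf6KO every Zscan4 and Tcstv probe was at least 2-fold higher than in wildtype, and Zfp352 was not. The 2 Zscan4a probes were 5.89-fold and 6.94-fold higher, the 3 Zscan4c probes 5.02-fold to 12.9-fold and the Zscan4f probe 7.57-fold. Tcstv1 was at least 4.15-fold and Tcstv3 at least 6.72-fold higher. On the array labelled Pcgf6KO+ Pcgf6_flag the same 8 probes were dim, and their bounds lay 2.50-fold to 29.2-fold below Pcgf6KO. In total RNA, more expressing cells and more RNA per cell cannot be told apart.

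Zscan4a is annotated by RefSeq as a transcribed pseudogene on chromosome 7, within the Zscan4 cluster. Its probe A_55_P2007016 gave 32.7 ± 32.8 signal units on the array labelled Pcgf6KO+ Pcgf6_flag, 1385 ± 139 in Pcgf6KO and 215 ± 24.8 in wildtype. Its probe A_65_P06115 gave 51.0 ± 24.0, 1064 ± 107 and 140.0 ± 18.9 on the arrays in that order. Both probes were highest in Pcgf6KO and measured in wildtype, and both were dim on the array labelled Pcgf6KO+ Pcgf6_flag. Between Pcgf6KO and wildtype they differed by 2.56 and 2.79, with spot-error intervals at 95% of 2.12 to 2.99 and 2.32 to 3.27. The intervals overlap, and like all intervals here they leave out differences between cultures and RNA preparations.

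Zscan4c, the copy often used as a marker of the Zscan4-positive state of stem cells, was read by 3 probes. A_52_P363843 gave 28.2 ± 28.3 signal units on the array labelled Pcgf6KO+ Pcgf6_flag, 1045 ± 105 in Pcgf6KO and 74.1 ± 14.8 in wildtype. A_55_P2007017 gave 27.5 ± 27.6 on the array labelled Pcgf6KO+ Pcgf6_flag, 1117 ± 113 in Pcgf6KO and 203 ± 24.1 in wildtype. A_55_P2019533 gave 23.0 ± 23.0 on the array labelled Pcgf6KO+ Pcgf6_flag, 1480.0 ± 148 in Pcgf6KO and 203 ± 23.3 in wildtype. The order of the arrays was the same for all 3 probes, with Pcgf6KO highest and the array labelled Pcgf6KO+ Pcgf6_flag below detection. The size differed between probes, from 2.33 (interval 1.89 to 2.77) for A_55_P2007017 over 2.74 (2.30 to 3.17) for A_55_P2019533 to 3.68 (3.05 to 4.32) for A_52_P363843, all for Pcgf6KO minus wildtype. The first and last of these intervals do not overlap. Which Zscan4 transcripts each probe binds was not tested, so the values are best read as those of the cluster. The background around the A_55_P2007017 spot was marked as uneven on the array labelled Pcgf6KO+ Pcgf6_flag.

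Zscan4f, a further full-length copy, was read by probe A_55_P2007986. It gave 42.0 ± 24.3 signal units on the array labelled Pcgf6KO+ Pcgf6_flag, 2794 ± 279.7 in Pcgf6KO and 337 ± 35.6 in wildtype. Pcgf6KO was higher than wildtype by 2.92 (2.51 to 3.33).

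**Figure D1:**
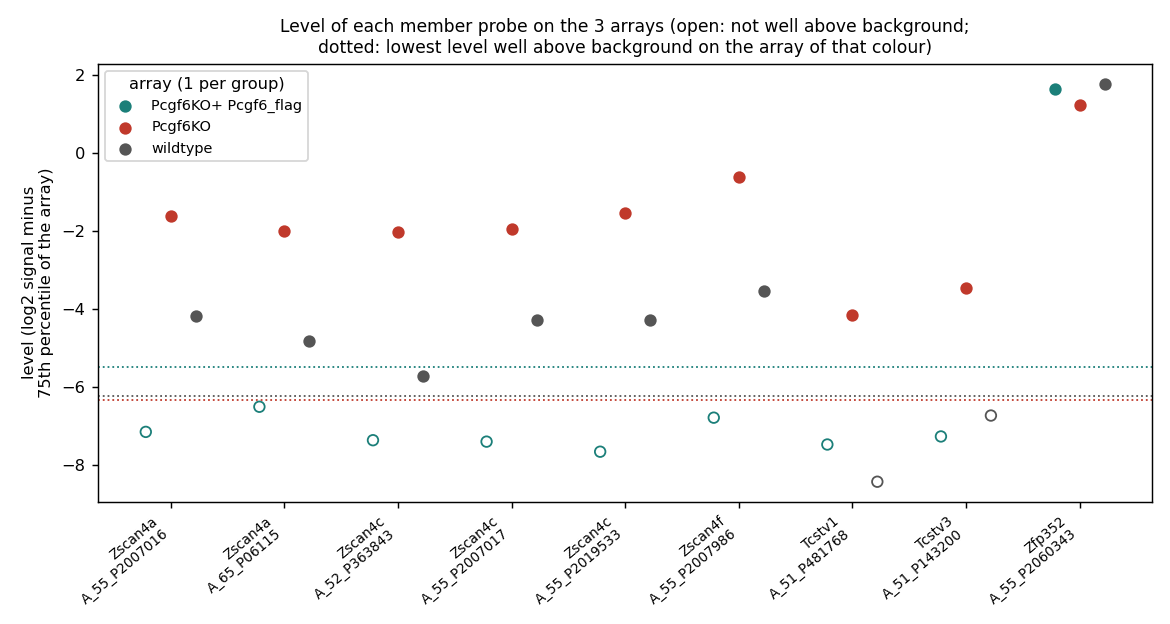
Level (log2 of the signal minus the array's 75th percentile) of each of the 9 member probes on the array labelled Pcgf6KO+ Pcgf6_flag, in Pcgf6KO and in wildtype, 1 spot per array. Open points are dim, and a dotted line of the same colour marks each array's lowest level well above background (-5.49, -6.33 and -6.22). The 8 Zscan4 and Tcstv probes are highest in Pcgf6KO and open on the array labelled Pcgf6KO+ Pcgf6_flag, and Zfp352 is filled on all 3 arrays.

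The Tcstv genes lie on chromosome 13. Probe A_51_P481768 of Tcstv1 gave 26.1 ± 26.2 signal units on the array labelled Pcgf6KO+ Pcgf6_flag, 239.9 ± 27.2 in Pcgf6KO and 11.4 ± 11.53 in wildtype. Probe A_51_P143200 of Tcstv3 gave 30.1 ± 23.9 signal units on the array labelled Pcgf6KO+ Pcgf6_flag, 388 ± 40.8 in Pcgf6KO and 37.0 ± 12.8 in wildtype. Both were well above background in Pcgf6KO only, so unlike the Zscan4 probes they give no level in wildtype. The background around the Tcstv3 spot was marked as uneven in Pcgf6KO.

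Zfp352, on chromosome 4, gave 14334 ± 1434 signal units on the array labelled Pcgf6KO+ Pcgf6_flag, 10024.5 ± 1003 in Pcgf6KO and 13338 ± 1334 in wildtype with its probe A_55_P2060343. It was well above background on all 3 arrays, and it was lowest in Pcgf6KO, where the other measured members were highest. Pcgf6KO was lower than wildtype by -0.54 (-0.94 to -0.14), under the 2-fold threshold. The array labelled Pcgf6KO+ Pcgf6_flag differed from Pcgf6KO by 0.41 (0.01 to 0.81) and from wildtype by -0.13 (-0.53 to 0.27). The last of these intervals includes 0.

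Counted over probes, 8 of 9 were at least 2-fold higher in Pcgf6KO than in wildtype and 0 lower. Of all 37964 probes compared 5.17% were higher and 4.19% lower. Among 10821 of them with a mean level in the range of the 8 Zscan4 and Tcstv probes, 9.83% were higher and 7.18% lower. The median difference was 2.74 over the member probes and -0.03 over all probes compared. The Tcstv1 and Tcstv3 probes were dim in wildtype and could only come out higher, and of the 7 member probes measured on both arrays 6 were higher. Read by their brightest probe, 5 of 6 member genes were higher, against 6.62% higher and 3.57% lower of 15867 genes. Ranked among all 37964 probes, the Zscan4c probe A_52_P363843 was at place 23 from the top and the Zscan4f probe at place 82, while the lowest-ranked Zscan4 probe was at place 209. The Zscan4 probes read the same gene or related copies, so they are not independent observations, and how far their targets overlap was not tested.

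Most fibroblast markers moved over the same pair of arrays in the other direction. Of 15 compared, 10 were at least 2-fold lower in Pcgf6KO and 0 higher. The median was -1.999, which was -1.12 over the 13 measured on both arrays, and Postn and Prrx1 were dim in Pcgf6KO. Those not called were Col5a2, higher in Pcgf6KO by 0.98, and Col1a1, Dcn, Fn1 and Sparc, which differed by -0.93, -0.20, -0.09 and -0.22. The part of the fibroblast markers in the Zscan4 and Tcstv differences was not tested. The summed level of the stem cell markers was 135 in Pcgf6KO and 153 in wildtype.

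The array labelled Pcgf6KO+ Pcgf6_flag was set against Pcgf6KO to ask which levels differ with the introduced Pcgf6_flag, as far as the label holds. Since all 8 Zscan4 and Tcstv probes were dim there, each difference is a bound. For the Zscan4a probes the level was lower by a factor of at least 14.5 (A_55_P2007016) and 11.1 (A_65_P06115). For Zscan4c the factor was at least 10.9 with A_52_P363843, 11.7 with A_55_P2007017 and 15.5 with A_55_P2019533. Zscan4f was at least 29.2-fold lower, the largest such difference or bound of all 35996 probes compared. Tcstv1 was at least 2.50-fold and Tcstv3 at least 4.05-fold lower.

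In this comparison 8 of 9 member probes were at least 2-fold lower and 0 higher. Of all probes compared 7.57% were lower and 11.6% higher. Of the 9111 with a mean level in the range of the 8 Zscan4 and Tcstv probes, 12.3% were lower and 24.8% higher. The member genes had 5 of 6 lower, against 10.3% lower and 6.33% higher of 15320 genes. The median over member probes was -3.47, with the 8 dim probes at their bounds, against 0.08 over all probes. A probe dim on the array labelled Pcgf6KO+ Pcgf6_flag can only come out lower, so the direction of these 8 follows from their detection in Pcgf6KO, and their size is given by the bounds. The fibroblast markers were lower as well, 7 of 12 compared, with a median of -1.62. Col5a2, Postn, Lox, Prrx1, Mgp and Pdgfrb were dim on the array labelled Pcgf6KO+ Pcgf6_flag, and Lum on all 3. Their part in the member differences was not tested. The comparison shares the Pcgf6KO array with the one before, so the opposite signs are not separate observations. When the background was corrected with normexp, Tcstv1 was lower by -0.89 and no longer passed 2-fold.

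**Figure D2:**
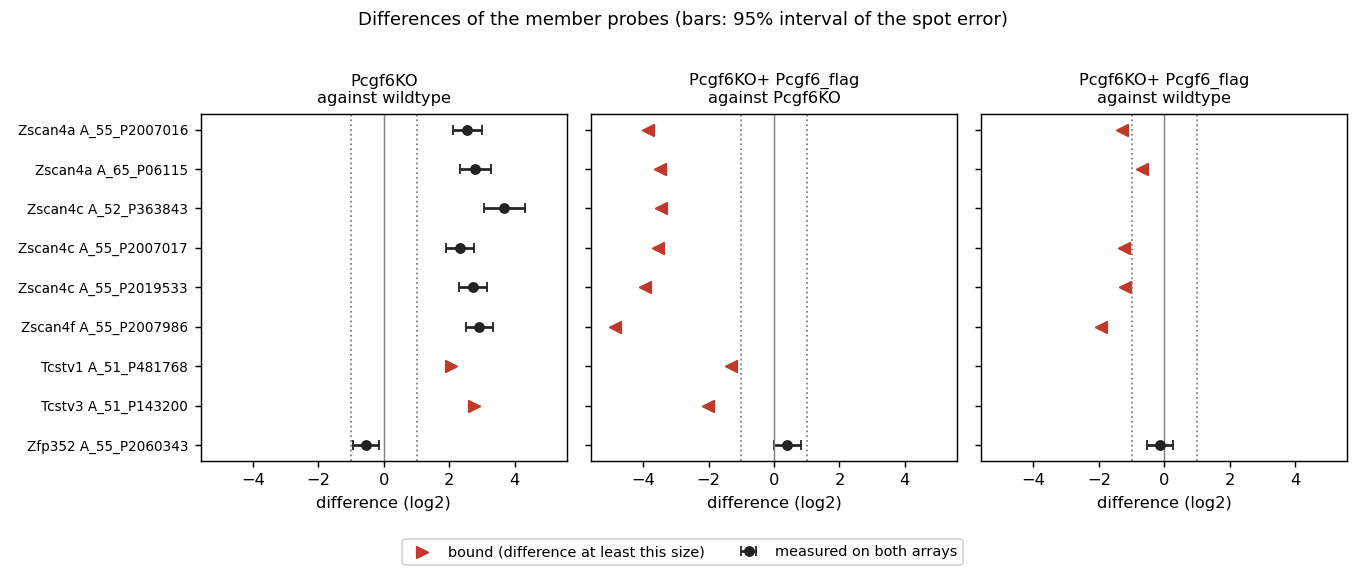
Differences in log2 units for each member probe, in a panel for each comparison. Filled points are measured on both arrays, with spot-error intervals at 95%, triangles mark bounds where the probe was dim on 1 array, and dotted lines mark 2-fold. The 8 Zscan4 and Tcstv probes lie above 1 for Pcgf6KO against wildtype and below -1 for the array labelled Pcgf6KO+ Pcgf6_flag against Pcgf6KO, while Zfp352 stays between -0.54 and 0.41.

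Set against wildtype, the array labelled Pcgf6KO+ Pcgf6_flag was lower for most of the Zscan4 probes that could be compared. Zscan4f was at least 3.85-fold lower. The Zscan4a probe A_55_P2007016 was at least 2.46-fold and the Zscan4c probes A_55_P2007017 and A_55_P2019533 each at least 2.32-fold lower, while the Zscan4a probe A_65_P06115 had a bound of 1.60-fold. No bound could be given for A_52_P363843, whose wildtype signal of 74.1 was under the detection limit of 103 on the other array, nor for Tcstv1 and Tcstv3, which were dim on both arrays. Of 6 member probes compared 4 were at least 2-fold lower and 0 higher, against 5.18% lower and 10.6% higher of all 35854 probes compared. Among those with a mean level in the range of the 8 Zscan4 and Tcstv probes, 8.46% were lower and 23.6% higher. The member genes had 3 of 4 lower, against 6.44% lower and 5.97% higher of 15201 genes. Again these probes were dim on the array labelled Pcgf6KO+ Pcgf6_flag and could only come out lower. The count of 4 probes was 1 with normexp background correction and 2 without scaling. Beside these values, 13 of 15 fibroblast markers were lower than in wildtype, with a median of -3.43, and their part was not tested.

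**Figure D3:**
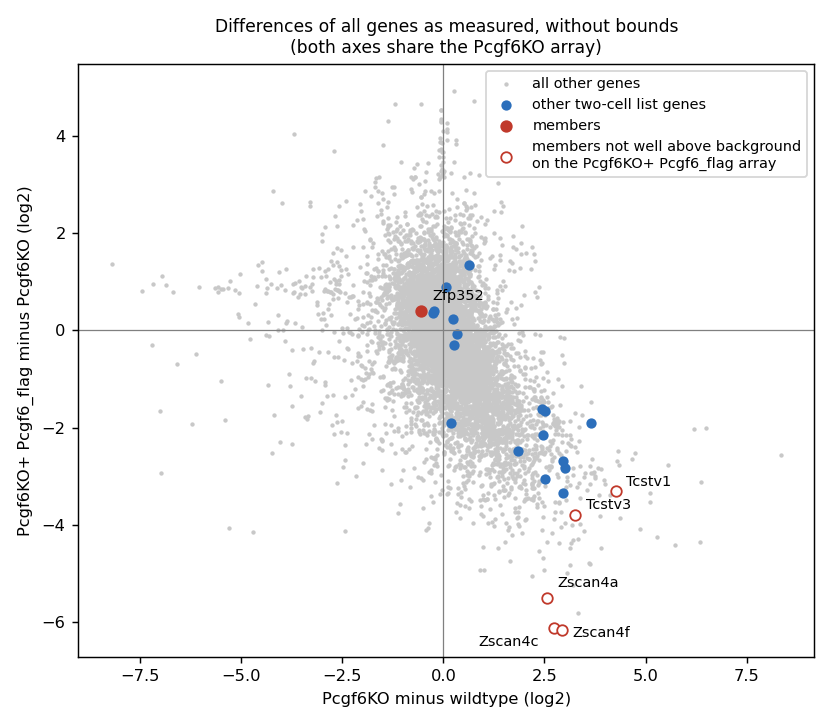
Each point is 1 of the genes measured on at least 1 array, read by its brightest probe, with the difference of Pcgf6KO minus wildtype across and that of the array labelled Pcgf6KO+ Pcgf6_flag minus Pcgf6KO upwards, both in log2 units of the signal as measured, without bounds. Members lie at the lower right except Zfp352 at -0.54 and 0.41; open points are dim on the array labelled Pcgf6KO+ Pcgf6_flag, and both axes contain the Pcgf6KO array.

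Other genes of the 2-cell state were taken from a list of 59 symbols, of which 26 were named on the array and 17 were well above background on at least 1 array. In Pcgf6KO 8 of 17 were at least 2-fold higher than in wildtype and 0 lower, against 6.62% higher and 3.57% lower of all genes compared. Pramel6, Pramel16 and Tmem92 were well above background in Pcgf6KO only and could not have come out lower. Over the 14 measured on both arrays 6 were higher and 0 lower, with a median of 0.48 against -0.02 over all genes so measured. AF067061, which lies among the Tcstv genes, had 121 signal units on the array labelled Pcgf6KO+ Pcgf6_flag, 799.9 in Pcgf6KO and 90.8 in wildtype, and was higher in Pcgf6KO by 3.01. Gm8300 had 399.6, 2406 and 284 signal units on these arrays and was higher by 2.95. Gm4340 had 319.9, 933 and 148 and was higher by 2.52, and Gm2022 had 183, 1405 and 225 and was higher by 2.51. On these probes, the brightest of each gene, all 4 had their highest signal in Pcgf6KO and were well above background on all 3 arrays. Other probes of Gm2022 and Gm8300 were dim on the array labelled Pcgf6KO+ Pcgf6_flag.

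The other 4 included the PRAME-like genes Pramel7, Pramel6 and Pramel16. Pramel7 was higher in Pcgf6KO than in wildtype by 2.44, Pramel6 at least 5.23-fold and Pramel16 at least 3.49-fold. Arg2, the mitochondrial arginase gene, was higher by 1.83.

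On the array labelled Pcgf6KO+ Pcgf6_flag 8 of 16 list genes were at least 2-fold lower than in Pcgf6KO and 1 was higher, against 10.3% lower and 6.33% higher of all genes compared. Over the 12 measured on both arrays 5 were lower and 1 higher, with a median of -0.19 against 0.03 over all genes so measured. The 8 lower genes were the 8 that were higher in Pcgf6KO than in wildtype, a count that the shared Pcgf6KO array enters. Gm2022 was lower by -3.05, AF067061 by -2.83, Gm8300 by -2.70 and Gm4340 by -1.65, and for Arg2 and Pramel6 the bounds were 4.36-fold and 3.15-fold. The higher gene was Tdpoz8, a TRAF and POZ domain gene, with 5074 signal units on the array labelled Pcgf6KO+ Pcgf6_flag, 1854 in Pcgf6KO and 1099 in wildtype. Read by brightest probes, it was also the 1 gene of 13 that passed 2-fold against wildtype, by 1.97, and 0 were lower. The median was 0.25, and 5.97% of all genes compared were higher and 6.44% lower.

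Several of these genes are read differently by different probes. The brightest probe of Sp110, a nuclear body protein gene, had 277906 signal units on the array labelled Pcgf6KO+ Pcgf6_flag, 194577 in Pcgf6KO and 209113 in wildtype, and differed by -0.24 between Pcgf6KO and wildtype. Its probe A_55_P2037235 was at least 12.8-fold and its probe A_55_P2152566 2.22-fold higher in Pcgf6KO than in wildtype. On the array labelled Pcgf6KO+ Pcgf6_flag these probes were at least 7.74-fold and 5.99-fold lower than in Pcgf6KO. There A_55_P2152566 was also at least 2.70-fold lower than in wildtype. The brightest Gm2016 probe, with 21100 signal units on the array labelled Pcgf6KO+ Pcgf6_flag, 24185 in Pcgf6KO and 18287 in wildtype, differed by 0.27 between Pcgf6KO and wildtype, while its other 2 probes differed by 3.03 and 2.88. The second AF067061 probe was at least 2.43-fold higher in Pcgf6KO than in wildtype but differed by 0.33 between the array labelled Pcgf6KO+ Pcgf6_flag and Pcgf6KO. On the array labelled Pcgf6KO+ Pcgf6_flag it was at least 3.05-fold higher than in wildtype. The brightest probe of Usp17la, a deubiquitinating enzyme gene, differed by -0.26 between Pcgf6KO and wildtype, and its other probe was at least 2.13-fold higher. The other probe of Tdpoz8, A_55_P2039761, was dim on all 3 arrays, so the calls of Tdpoz8 rest on its brightest probe.

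Activators and repressors of the 2-cell state were given as separate lists. Of 13 activators 12 were named on the array and 10 measured. The homeobox gene Obox6 alone was at least 2-fold higher in Pcgf6KO than in wildtype, by 1.57. This was 1 of 10 activators, with 0 lower, against 6.62% higher and 3.57% lower of all genes compared. Obox6 had 89.8 signal units on the array labelled Pcgf6KO+ Pcgf6_flag, where it was dim, 206 in Pcgf6KO and 63.4 in wildtype. Between the array labelled Pcgf6KO+ Pcgf6_flag and Pcgf6KO the bound was 2.16-fold, and the signal in Pcgf6KO was the higher. There it was the 1 activator of 10 called, against 10.3% lower and 6.33% higher of all genes compared. Both calls were lost with normexp background correction. Dppa2 and Dppa4, chromatin factors upstream of the 2-cell programme, differed by -0.34 and -0.33 between Pcgf6KO and wildtype. The median over activators was -0.20 for Pcgf6KO against wildtype, 0.17 for the array labelled Pcgf6KO+ Pcgf6_flag against Pcgf6KO and 0.06 against wildtype. Dux was not analysed here, since its symbol matched no gene of the table used.

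Of 38 repressors 37 were measured, on all 3 arrays. Pcgf6 alone was at least 2-fold lower in Pcgf6KO than in wildtype and 0 were higher, with a median of -0.09. The shares of all genes compared were 3.57% lower and 6.62% higher. The PRC1.6 subunits L3mbtl2, Mga and E2f6 differed by -0.09, -0.35 and 0.56, and Zfp42 by 0.01. On the array labelled Pcgf6KO+ Pcgf6_flag, the DNA demethylase gene Tet2 was higher than in Pcgf6KO by 1.18. Yaf2, another PRC1 subunit, was lower by -1.16, and the median was 0.05. That is 1 higher and 1 lower of 37, against 6.33% higher and 10.3% lower of all genes compared. L3mbtl2, Mga and E2f6 differed by 0.35, 0.05 and -0.78 there. Against wildtype Pcgf6 alone passed 2-fold, by -1.45, with a median of -0.07. The shares of all genes in that comparison were 6.44% lower and 5.97% higher.

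**Figure D4:**
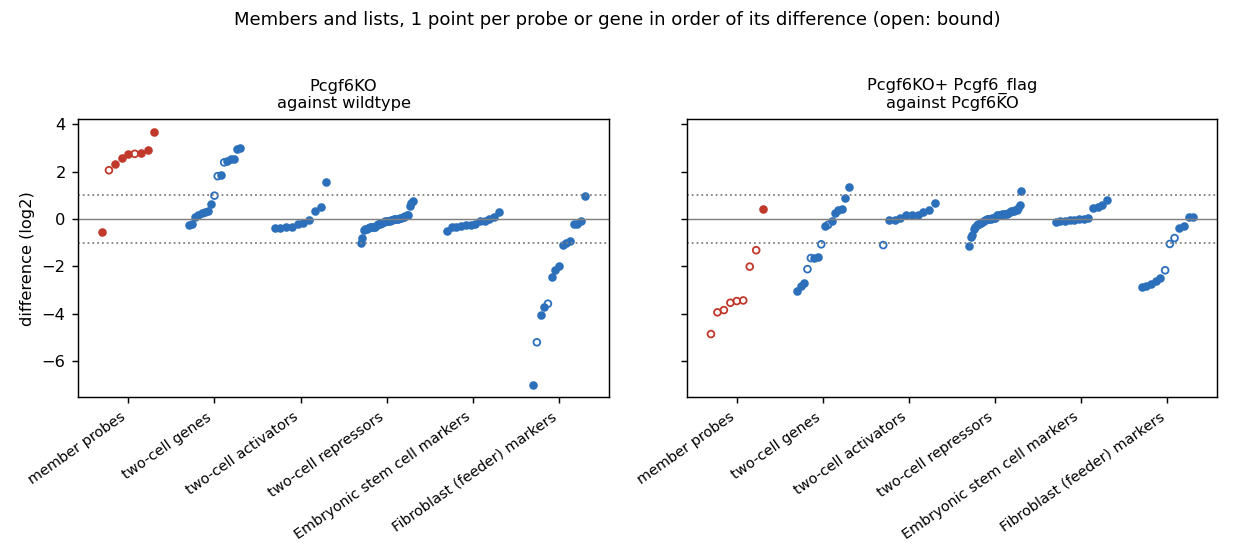
Difference in log2 units of each member probe and of each compared gene of the lists of other 2-cell genes, activators, repressors, stem cell markers and fibroblast markers, for Pcgf6KO against wildtype and for the array labelled Pcgf6KO+ Pcgf6_flag against Pcgf6KO. Points run in order of their difference, open points are bounds and dotted lines mark 2-fold. For Pcgf6KO against wildtype 8 of 17 other 2-cell genes, 1 of 10 activators and 0 of 37 repressors lie above the upper dotted line, and 2 of these 8 are bounds.

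The neighbours of the members were read next, using RefSeq's gene order on GRCm38.p6. Of 10 measured genes flanking the Zscan4 cluster, 5 to each side, 8 could be compared between Pcgf6KO and wildtype. Their differences ran from -0.27 to 0.53, none past 2-fold, whereas the 3 measured Zscan4 genes inside were higher by 2.56 to 2.92 on their brightest probes. Between the array labelled Pcgf6KO+ Pcgf6_flag and Pcgf6KO 2 of the 10, the vomeronasal receptor genes Vmn2r39 and Vmn2r37, were higher as bounds and 0 lower. Of all genes in that comparison 6.33% were higher and 10.3% lower.

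Around the Tcstv genes the picture was mixed. The 5 measured genes on the one flank that could be read differed by -0.33 to -0.19 between Pcgf6KO and wildtype. Of the 7 measured genes inside, Tcstv1, Tcstv3 and AF067061 were higher in Pcgf6KO as given above. B020031M17Rik had 514 signal units on the array labelled Pcgf6KO+ Pcgf6_flag, 2265 in Pcgf6KO and 416 in wildtype, and was higher in Pcgf6KO than in wildtype by 2.32 and lower by -2.24 on the array labelled Pcgf6KO+ Pcgf6_flag than in Pcgf6KO. Gm20767 was higher by 1.59 in Pcgf6KO than in wildtype but differed by only -0.27 between the array labelled Pcgf6KO+ Pcgf6_flag and Pcgf6KO. BC147527 and AF067063 differed by 0.11 and 0.07 between Pcgf6KO and wildtype, so not every gene of the cluster was called. Of 10 genes around Zfp352, 1, the transcription factor gene Dmrta1, passed 2-fold upwards in Pcgf6KO against wildtype, as a bound, and 0 downwards. Of all genes compared 6.62% were higher and 3.57% lower. Between the array labelled Pcgf6KO+ Pcgf6_flag and Pcgf6KO 1 of the 10 was higher and 2 lower, against 6.33% and 10.3% of all genes.

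**Figure D5:**
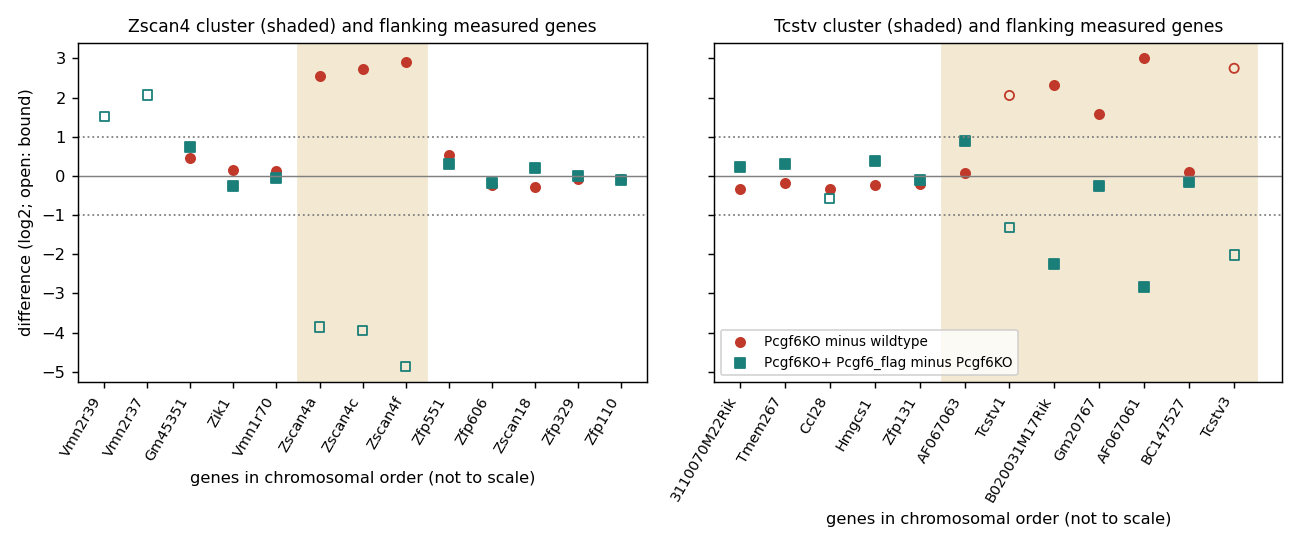
Differences in log2 units of genes in RefSeq order within and around the Zscan4 and Tcstv clusters, for Pcgf6KO against wildtype and for the array labelled Pcgf6KO+ Pcgf6_flag against Pcgf6KO; positions are ranks, not distances, and dim genes are drawn at their bounds. Flanking genes of the Zscan4 cluster lie between -0.27 and 0.53 for Pcgf6KO against wildtype, and members lie above 1.

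Genes with the most similar pattern were sought among 15546 genes measured in Pcgf6KO, by the distance between their pair of differences as measured and the members' median pair of 2.83 (Pcgf6KO minus wildtype) and -4.65 (array labelled Pcgf6KO+ Pcgf6_flag minus Pcgf6KO), over 3 arrays. Among the 6 nearest, predicted genes aside, were Tbr1, a T-box factor of the cortex, at a distance of 0.27 and Pcp4, a calmodulin regulator, at 0.36. Slc10a4 and Tex16 lay at 0.40 each and the PRAME-like gene Pramel20 at 0.43. Tbr1 had 41.5 signal units on the array labelled Pcgf6KO+ Pcgf6_flag, 804 in Pcgf6KO and 101 in wildtype. Like the Zscan4 and Tcstv probes, these 5 genes were dim on the array labelled Pcgf6KO+ Pcgf6_flag, so their second difference has no measured lower end. Dim signals enter these distances as measured, so the order of the genes is not resolved. With a gene read as the mean of its probes, 2 of the 6 stayed among the 6 nearest.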

How the data were processed

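Total RNA, extracted with TRIzol and labelled with Cy3 per the labels' protocols, was hybridised to 1-colour Agilent arrays. The deposited scanner files hold the spot intensity on a linear scale, processed with Agilent Feature Extraction 11.5.1.1 per the file headers; the submitters' processing notes name 10.7. The authors' deposited value table held the same processed intensity for all single-spot probes (relative tolerance 1e-06), so it is linear, unscaled and without direction.

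Control spots and 192, 158 and 141 outlier spots (array labelled Pcgf6KO+ Pcgf6_flag, Pcgf6KO, wildtype) were left out. No spot (0) was saturated. Repeated spots were averaged by probe, and log2 values were scaled to the 75th percentile of each array. Accessions were matched to RefSeq's GRCm38.p6 gene table, and 26762 of 55681 probes matched a gene; the array design is on mm9, so no probe coordinates are given. Each of 16058 genes was represented by the brightest of its probes measured on at least 1 array. A bound sets the bright array against the dim array's detection limit (its lowest signal marked well above background) or the probe's own signal, whichever is higher. Repeated spots of 1 probe had an SD of 0.20 to 0.23 log2 units within an array, over 432 probes.

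Groups follow the genotype labels. The members, lists and naming rules were chosen with earlier results of these data known. All members and Pcgf6 are named, with up to 6 genes past 2-fold per list and comparison, 7 regulators in any case and the 6 genes nearest in pattern, of which 1 is not reported here. Pramel16, genes of the member clusters, some marker genes and genes whose probes disagree were named after their values were seen. Of the listed symbols, 28 were renamed or not found. Alternatives were normexp (limma 3.58.1, offset 50, on the median spot signal, since the files hold no mean), quantile normalization, median scaling, scaling over probes measured on all arrays, the value table, outlier spots kept, no bounds, the mean over probes, and thresholds of 1.5-fold and 3-fold. Analyses used Python 3.11.15, pandas 2.3.3 and R 4.3.3.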

Additional observations from a re-analysis of the deposited data

How the results depend on the processing

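The 8 Zscan4 and Tcstv probes were at least 2-fold higher in Pcgf6KO than in wildtype under all 12 alternatives run. The 1.5-fold threshold, the removal of bounds and the counts without Zfp352 could not have lost these calls. The value table held the same signals for these single-spot probes. Against Pcgf6KO, the array labelled Pcgf6KO+ Pcgf6_flag had 7 to 8 member probes and 4 to 5 member genes past the threshold downwards. Against wildtype it had 1 to 6 probes lower, so that count depends on the processing. With normexp the median over member probes was 2.04 for Pcgf6KO against wildtype, -2.66 for the array labelled Pcgf6KO+ Pcgf6_flag against Pcgf6KO and -0.84 against wildtype, where 1 member probe and 1 member gene stayed lower, and 0 activators were higher in Pcgf6KO than in wildtype or lower on the array labelled Pcgf6KO+ Pcgf6_flag than in Pcgf6KO. The cause was not tested. Without bounds the median was -5.32 against Pcgf6KO and -1.70 against wildtype, where 2 other 2-cell genes were higher and 1 lower, because dim probes then take their own signal.

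With a 3-fold threshold fewer values can pass: 0 activators were higher and 0 repressors lower in Pcgf6KO than in wildtype. On the array labelled Pcgf6KO+ Pcgf6_flag 0 other 2-cell genes were then higher than in Pcgf6KO, 0 activators lower and 0 repressors higher or lower, and 1 member probe, 1 member gene and 0 repressors were lower than in wildtype. With 1.5-fold, 2 repressors were higher and 2 lower in Pcgf6KO than in wildtype. On the array labelled Pcgf6KO+ Pcgf6_flag 2 other 2-cell genes and 1 activator were then higher and 3 repressors lower than in Pcgf6KO, and 4 other 2-cell genes were higher than in wildtype.

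Leaving out the scaling, chosen after seeing the data, shifted the median of all probes measured on both arrays to 0.09, 0.21 and 0.27, against -0.04, 0.10 and 0.03 with it (Pcgf6KO against wildtype, the array labelled Pcgf6KO+ Pcgf6_flag against Pcgf6KO and against wildtype). Zfp352 then reversed to 0.10 against wildtype on the array labelled Pcgf6KO+ Pcgf6_flag. There 2 member probes were lower, with a median of -0.98, and 4 other 2-cell genes higher than in wildtype, 2 other 2-cell genes were higher than in Pcgf6KO, and 0 repressors were lower in Pcgf6KO than in wildtype. The last count was also 0 with the 75th percentile over probes measured on all arrays. With the mean over probes 1 member gene was lower than in wildtype on the array labelled Pcgf6KO+ Pcgf6_flag. A common detection limit and the counts without Zfp352 were also chosen after seeing the data. No paired analysis was possible because each group holds 1 array. For the same reason no array could be left out, and a fit with slide as a block was not made, since slide 2 has 1 array. The detection limit of 103 signal units on the array labelled Pcgf6KO+ Pcgf6_flag sets how low its Zscan4 and Tcstv levels can be read. Bounds moved with the processing. For Zscan4f the difference of that array from Pcgf6KO ran from -6.16 to -3.98. For Tcstv3 the difference of Pcgf6KO from wildtype ran from 1.60 to 3.26.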
